A study of Mus musculus with 29 samples.

Results

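Liver of male mice whose dams drank tributyltin (TBT) through gestation and lactation was compared between 10 and 5 months of age. The comparison took 8 of the 29 RNA-seq libraries of the study: 5 TBT livers of 10 months (replicates 2, 4, 8, 9 and 10) and 3 TBT livers of 5 months (replicates 3, 5 and 6). The 5-month group as labelled held 5 libraries, and 2 were left out; the kept ones were chosen by measured values, Ly6d of at most 50 CPM and Sis of at most 100 CPM. Ly6d, which codes for a surface protein of the Ly6 family, was at 95 CPM in the left-out replicate 4 and at 6.94, 1.43 and 1.18 CPM in replicates 3, 5 and 6. Sis, the sucrase-isomaltase of the intestinal brush border, was at 668 CPM in the left-out replicate 2 and at 0.0857 to 0.286 CPM in the 3 kept libraries. CPM are read counts relative to the total of the library, here scaled over all 29 libraries. Since these values chose the libraries, Ly6d, Sis and the lists of liver tumour and intestinal genes are given only as values.

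Livers of the vehicle-labelled arm (VEH) served to set the change with age beside the same change without the exposure. The same limits were applied to them, which kept 6 VEH livers of 10 months and 4 of the 6 VEH livers of 5 months. No library is shared between the arms. The labels give the exposure of the dams only for gestation and lactation, so at both ages it lay months in the past. The labels name neither a strain nor a dose, give no hour of tissue collection, and leave unsaid whether the libraries are from separate animals. The remaining 9 libraries, 7 adenomas of 10 months and both left-out VEH livers, were not part of the comparison.

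Tributyltin is an organotin compound that binds the nuclear receptors RXR and PPARG, and PPARG promotes lipid storage. Ageing liver is known for shifts in metabolic, inflammatory and matrix genes. Many liver genes also follow the circadian clock, in which BMAL1 (gene Arntl) and CLOCK switch on the Per, Cry, Nr1d1 and Dbp genes, whose products feed back on them. A clock gene's level therefore depends on the hour at which a liver is taken as well as on age.

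The libraries of the ages differed in depth. The 10-month TBT livers held 25973945 to 32850438 counts, whereas the kept 5-month TBT livers held 7513448 to 13661352, with no overlap. Between 15113 and 15483 genes had a count in each 10-month TBT liver, and 12780 to 15241 in each 5-month one. The defining hepatocyte markers were abundant at both ages, with the albumin gene Alb at 73100 to 84600 CPM at 10 months and at 63900 to 90000 CPM at 5 months. Within each age, no pair of these TBT livers held identical counts, and every such pair differed by more than counting noise.

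Of 13115 genes tested, 113 differed between 10 and 5 months in TBT liver at an adjusted p under 0.05 (edgeR quasi-likelihood test, Benjamini-Hochberg), which is 0.862% of the genes. Of these, 51 (0.389%) were higher and 62 (0.473%) lower at 10 months. The changes were mostly modest: 15 genes were at least 2-fold higher and 11 at least 2-fold lower. At an unadjusted p under 0.05 there were 2608 genes, or 19.9%, with 1223 higher (9.33%) and 1385 lower (10.6%). DESeq2 called 794 genes, among them 109 of the 113, and limma-voom called 24, all among the 113. The 8 TBT libraries fitted alone with edgeR gave 0 calls, with 1957 genes at an unadjusted p under 0.05. In 105 of the 113 genes the libraries of the 2 ages did not overlap, against 10.7% of all genes tested.

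One 5-month library weighed heavily in this count. Replicate 5, the shallowest library, was the highest of the 3 in 45 of the 62 genes that fell (72.6%), against 52.3% of all tested genes with a negative change. It was the lowest of the 3 in 41 of the 51 genes that rose (80.4%), against 60.8% of all tested genes with a positive change. Without replicate 5 the test called 6 genes, without replicate 6 it called 1030, and without replicate 3 it called 433. Leaving out a 10-month TBT library gave 15 (replicate 4), 22 (replicate 9), 26 (replicate 10), 46 (replicate 8) and 67 (replicate 2) calls. Only 4 of the 113 genes passed in all 18 fits that left out 1 library each: Gnas, Rbck1, Ap2s1 and Thop1.

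The left-out 5-month TBT libraries took no part in these calls. For 30 of the 51 genes that rose, both of them lay below every 10-month TBT liver, and for 5 neither did. Over all tested genes with a positive change, both did in 20.9% and neither in 37.1%. For 27 of the 62 genes that fell, both lay above every 10-month TBT liver, and for 6 neither did, against 16% and 44.1% of all tested genes with a negative change. The 10-month livers in these counts are the ones the calls used. With both left-out libraries of each arm put back, 232 genes passed, of which 66 were among the 113.

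**Figure D1:**
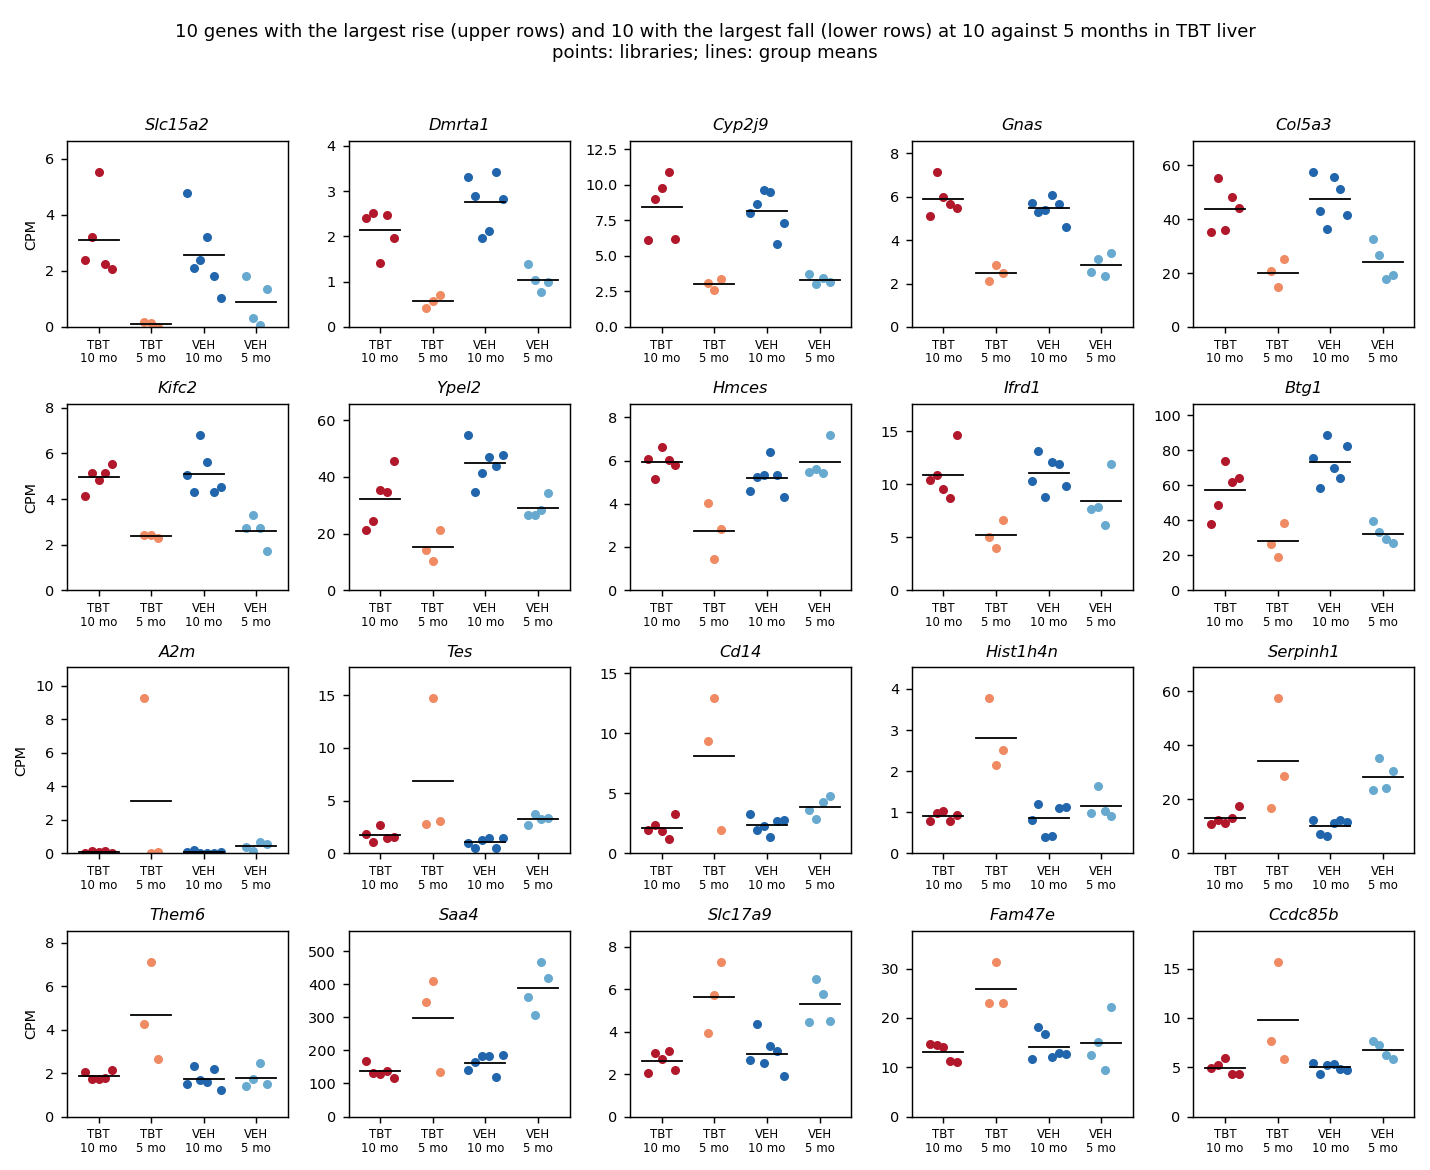
CPM by library of the 10 genes with the largest rise and the 10 with the largest fall in TBT liver. They were taken among called genes averaging 2 CPM or more at either age. Groups are TBT at 10 and 5 months and VEH at 10 and 5 months, points are libraries and lines group means. Rises such as Gnas (5.13 to 7.14 CPM at 10 months, 2.14 to 2.86 CPM at 5 months) separate the ages in both arms, whereas A2m rests on a single 5-month TBT library at 9.25 CPM.

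Changes were ranked among called genes averaging 2 CPM or more at either age. Those that rose most at 10 months included a peptide transporter, a P450, a G protein subunit and a collagen chain. Below, values of single TBT livers run over replicates 2, 4, 8, 9 and 10 at 10 months and over replicates 3, 5 and 6 at 5 months. Slc15a2, which codes for the proton-coupled peptide transporter PEPT2, lies at chr16:36750177-36784962 on the minus strand (GRCm38). It was at 2.40, 3.21, 5.53, 2.26 and 2.06 CPM at 10 months and at 0.171, 0.143 and 0 CPM at 5 months. The 5-month values rest on 3 reads in all, against 432 reads at 10 months, a ratio of 33.7 after scaling for the total counts of each age, with an exact 95% interval of 11.4 to 164 for counting error only (edgeR log2 fold change 4.91 ± 1.06 (SE), adjusted p = 0.0395). All 5 older livers were above all 3 younger ones, but the left-out 5-month livers, at 2.27 and 4.13 CPM, were in the range of the older livers.

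Cyp2j9, a P450 of the family that oxidises arachidonic acid (chr4:96568429-96591578, minus strand), was at 6.11, 9.04, 9.81, 10.9 and 6.19 CPM at 10 months and at 3.08, 2.57 and 3.37 CPM at 5 months. Its log2 fold change was 1.45 ± 0.23 (adjusted p = 0.0142), and the left-out libraries, at 2.96 and 2.39 CPM, sided with the younger livers. Gnas (chr2:174284320-174346744, plus strand), the gene of the stimulatory G protein alpha subunit, was at 5.13, 7.14, 6.00, 5.67 and 5.49 CPM at 10 months and at 2.14, 2.86 and 2.51 CPM at 5 months. The change was 1.23 ± 0.18 on the log2 scale (adjusted p = 0.0126), the smallest adjusted p together with Ap2s1, and all older livers were above all younger ones. Antisense transcripts arise at the Gnas locus, and a gene annotated on the opposite strand covers 13.1% of its exon bases; the strand setting of the counting is not given in the sources used here, so such reads cannot be told apart.

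Dmrta1, a transcription factor with a DM domain, had 2.40, 2.52, 1.41, 2.47 and 1.96 CPM at 10 months and 0.428, 0.571 and 0.706 CPM at 5 months (log2 fold change 1.89 ± 0.33, adjusted p = 0.0172). Col5a3, a chain of collagen V, was at 35.2, 55.4, 36.0, 48.4 and 44.2 CPM in the older livers and at 20.7, 14.7 and 25.1 CPM in the younger ones (1.09 ± 0.22, adjusted p = 0.0345). Neither gene's ages overlapped. Btg1, an antiproliferative factor, averaged 57.3 ± 14.2 CPM at 10 months and 27.9 ± 9.91 CPM at 5 months (SD, n = 5 and 3), and here the lowest older liver, at 37.6 CPM, was just below the highest younger one, at 38.6 CPM.

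Kifc2, a kinesin, Ypel2, Hmces and Ifrd1 complete the 10 rises under this limit. Their log2 fold changes were 1.05, 1.05, 1.04 and 1.02, with adjusted p of 0.0395, 0.0463, 0.0395 and 0.0412. Called genes of lower level were not ranked, such as Nlrp1b, at 0.458 to 0.942 CPM in the older and at 0 to 0.0857 CPM in the younger TBT livers. Ifrd1 was at 10.3 and 10 CPM in the left-out 5-month TBT livers, in the range of the older ones (8.72 to 14.6 CPM). It did not pass in VEH liver (adjusted p = 0.138). Hmces, whose product shields abasic sites in single-stranded DNA, stood out against the VEH arm. It was at 5.15 to 6.63 CPM in the older and at 1.43 to 4.03 CPM in the younger TBT livers, but at 4.30 to 6.40 CPM in the older and at 5.41 to 7.17 CPM in the younger VEH livers. The difference between the arms' changes was 1.22 ± 0.29 and did not pass the test (adjusted p = 0.173). In the left-out 5-month TBT livers Hmces was at 4.25 and 9.68 CPM.

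The largest falls, ranked under the same limit, were less even across the younger livers than the rises. A2m, the gene of the protease inhibitor alpha-2-macroglobulin, fell by 5.20 ± 1.01 on the log2 scale (adjusted p = 0.0275), but only through replicate 3 of 5 months. Its level was 0.0338, 0.153, 0.0785, 0.122 and 0.0333 CPM at 10 months and 9.25, 0 and 0.0784 CPM at 5 months. Without that library the log2 fold change was 0.68, of the opposite sign and not called.

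Serpinh1, whose product HSP47 is the collagen chaperone of the endoplasmic reticulum, was at 10.9, 12.4, 11.1, 12.9 and 17.6 CPM at 10 months and at 16.6, 57.3 and 28.7 CPM at 5 months. The fall was 1.40 ± 0.30 on the log2 scale (adjusted p = 0.0406), and the lowest younger liver overlapped the highest older one. In the left-out 5-month livers Serpinh1 was at 12.7 CPM (replicate 2) and 60.2 CPM (replicate 4). Saa4, a serum amyloid A made constitutively by liver (chromosome 7), was at 169, 131, 129, 137 and 115 CPM at 10 months and at 347, 410 and 135 CPM at 5 months. It fell by 1.15 ± 0.25 (adjusted p = 0.0406), yet replicate 6 and both left-out livers, at 119 and 69.8 CPM, were within or below the range of the older livers. Cd14, the co-receptor for bacterial lipopolysaccharide, was at 1.96, 2.37, 1.84, 1.19 and 3.26 CPM at 10 months and at 9.34, 12.9 and 1.96 CPM at 5 months (fell by 1.91 ± 0.41, adjusted p = 0.0395). Here too replicate 6 was at the level of the older livers, and so was the left-out replicate 2, at 1.78 CPM. The left-out replicate 4 was at 11.5 CPM.

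Hist1h4n, a replication-dependent histone H4 gene, separated the ages fully: 0.777, 0.992, 1.02, 0.793 and 0.932 CPM at 10 months, against 3.77, 2.14 and 2.51 CPM at 5 months (fell by 1.67 ± 0.34, adjusted p = 0.0345). Histone H4 genes are near-identical copies, so their counts are uncertain. Slc17a9, the vesicular nucleotide transporter, had 2.06, 2.98, 2.71, 3.08 and 2.20 CPM in the older livers and 3.94, 5.71 and 7.29 CPM in the younger ones (fell by 1.13 ± 0.25, adjusted p = 0.0406). Tes, the focal adhesion protein testin, fell by 1.95 ± 0.46 (adjusted p = 0.0496), with 1.11 to 2.71 CPM at 10 months and with 2.74, 14.7 and 3.06 CPM at 5 months.

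Them6, Fam47e and Ccdc85b complete the 10 falls, with log2 fold changes of -1.31, -1.0 and -0.97 and adjusted p of 0.0395, 0.0395 and 0.0463. Neither Them6 nor Fam47e passed in VEH liver (adjusted p = 0.998 and 0.821). Them6 was at 1.72 to 2.13 CPM in the older and 2.67 to 7.14 CPM in the younger TBT livers, and at 1.22 to 2.32 CPM and 1.40 to 2.46 CPM in the VEH livers of 10 and 5 months. Fam47e was at 11.0 to 14.7 CPM in the older and 23.1 to 31.4 CPM in the younger TBT livers, and at 11.6 to 18.2 CPM and 9.35 to 22.3 CPM in the VEH livers of 10 and 5 months. Their interaction with the arm did not pass the test (adjusted p = 0.235 and 0.263). In the left-out 5-month TBT livers Them6 was at 1.93 and 2.83 CPM and Fam47e at 9.39 and 7.83 CPM, so that Fam47e was below every older TBT liver there. Exons of genes on the opposite strand cover 24.7% of the exon bases of Ccdc85b and 18% of those of Them6.

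Among the other genes past the threshold, several share a known role; these were chosen after their values were seen, and no list of them was tested. Called genes of chromatin proteins went in both directions. Suz12, a subunit of the Polycomb repressive complex PRC2, was at 34.5, 31.0, 30.4, 33.2 and 32.9 CPM at 10 months and at 25.4, 21 and 25.3 CPM at 5 months (log2 fold change 0.42 ± 0.09, adjusted p = 0.0345). Setdb1, a histone H3 lysine methyltransferase, and Kat2b, a histone acetyltransferase, rose by 0.40 and 0.43. Smarcd1, a subunit of the SWI/SNF remodelling complex, rose by 1.01 (adjusted p = 0.0395), with 3.96 to 7.04 CPM at 10 months and 2.29 to 3.29 CPM at 5 months. In all 4 genes every older TBT liver was above every younger one. Cxxc1, a CpG-binding subunit of a histone H3 lysine methyltransferase complex, was lower, at 16.8 to 19.4 CPM at 10 months and at 23.6 to 34.3 CPM at 5 months (fell by 0.67 ± 0.12, adjusted p = 0.0172), as was the histone gene Hist1h4n.

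Atf4, the transcription factor at the centre of the integrated stress response, was at 101, 86.1, 115, 99.1 and 105 CPM at 10 months and at 66.5, 61.6 and 69.9 CPM at 5 months. It rose by 0.60 ± 0.10 (adjusted p = 0.0144), and the left-out livers were also low, at 63.5 and 49.2 CPM. No other of 23 tested genes of the integrated stress response and p53 passed. Lipa, the lysosomal acid lipase, rose by 0.57 ± 0.13 (adjusted p = 0.0479), with 337 to 486 CPM at 10 months and 224 to 365 CPM at 5 months. Clk1, a kinase of splicing factors, rose by 0.71 (adjusted p = 0.0395). Nrp2, a co-receptor for semaphorins and VEGF, was at 33.0 to 47.2 CPM in the older and at 18.7 to 21.2 CPM in the younger livers (0.91 ± 0.17, adjusted p = 0.024).

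Falls included the cytosolic ribosomal protein genes Rplp2 (-0.78), Rpl36 (-0.62), Fau (-0.53) and Rpl41 (-0.47), all log2 fold changes. Psmb5 (-0.50) and Psmd13 (-0.49) of the proteasome were also called lower. These too were picked after their values were seen. On the list of 40 tested ribosomal protein genes 1 was called lower, against 0.473% of all genes, and there was no list of proteasome genes. Rplp2 was at 86.1, 81.1, 106, 88.4 and 89.4 CPM at 10 months and at 133, 202 and 123 CPM at 5 months (adjusted p = 0.021). Ribosomal protein genes have many near-identical copies, so their levels are uncertain. Pfn1, the actin-binding profilin, was at 101, 101, 102, 105 and 91.6 CPM at 10 months and at 144, 171 and 127 CPM at 5 months (fell by 0.58 ± 0.09, adjusted p = 0.0142). Ap2s1, a subunit of the clathrin adaptor AP-2, was at 42.6 to 46.3 CPM in the older and at 59.6 to 63.7 CPM in the younger livers (fell by 0.48 ± 0.07, adjusted p = 0.0126). Other called genes of vesicle traffic went in both directions. Rabep1, an effector of RAB5, was at 90.1 to 104 CPM in the older and at 39 to 81.7 CPM in the younger livers (0.63, adjusted p = 0.0499). Vps54, a subunit of the GARP tethering complex, was at 53.5 to 65.8 CPM and at 36.3 to 49.4 CPM (0.45, adjusted p = 0.0496). Appl2, an endosomal adaptor, rose by 0.62 (adjusted p = 0.0444). Copz1, of the COPI coat, was lower, at 91.7 to 98 CPM in the older and at 121 to 129 CPM in the younger livers. Yif1a, Gorasp1 and Rabac1 were also called lower. Keap1, the inhibitor of NRF2, and Nr1h3, the oxysterol receptor LXR alpha, fell by 0.34 and 0.37 (adjusted p = 0.0463 and 0.043).

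**Figure D2:**
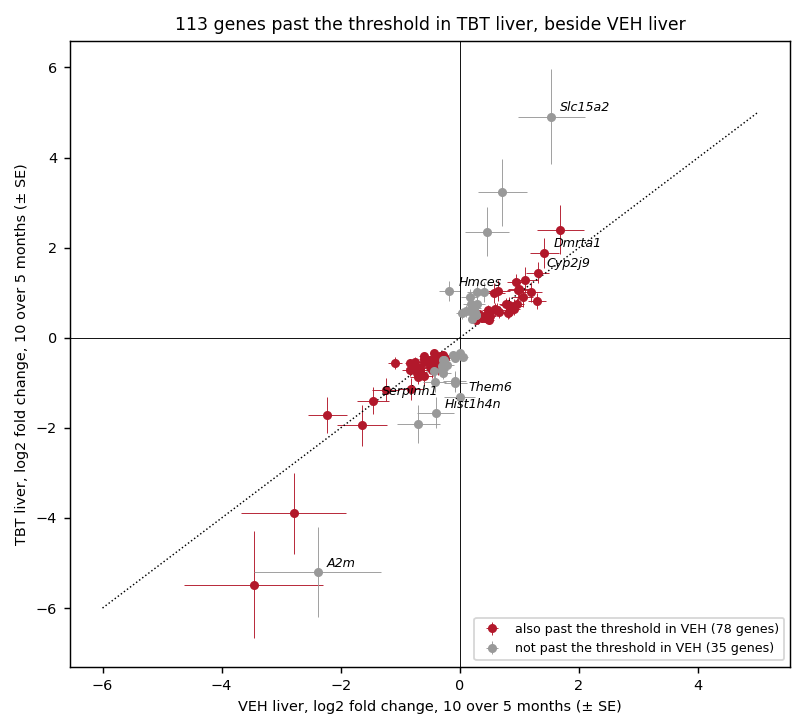
Log2 fold change at 10 over 5 months (± SE) in TBT liver (vertical axis) and VEH liver (horizontal axis) for the 113 genes past the threshold in TBT liver; the dotted line marks equal change. All but 2 points lie in the quadrants where both arms changed in the same direction, and 78 genes, in red, also passed in VEH liver.

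Most of the TBT calls were also found in VEH liver, where far more genes passed. In VEH liver 2333 genes (17.8%) differed between 10 and 5 months, 1174 higher (8.95%) and 1159 lower (8.84%). Of the 113 TBT calls, 78 were also called in VEH liver, all in the same direction, which is 69.0% of the TBT calls and 3.34% of the VEH calls. The sign was the same in VEH liver for 111 of the 113, against 67.5% of all tested genes, and the exceptions were Hmces (log2 fold change -0.18 in VEH) and Rabac1 (0.05 in VEH). Cyp2j9 rose by 1.30 in VEH liver (adjusted p = 0.000240) and Gnas by 0.94 (adjusted p = 0.000423). The standard errors were larger in the TBT arm, with a median of 0.186 over genes against 0.160 in the VEH arm.

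No gene's change with age differed between the arms in the edgeR test of the difference itself. The smallest adjusted p was 0.137, and 1482 genes (11.3%) had an unadjusted p under 0.05. DESeq2 called 117 such genes, 59 with the higher change in TBT and 58 with the lower, and limma-voom called 0 with 1299 at an unadjusted p under 0.05. In the edgeR test 28 of the 113 TBT calls had an unadjusted p under 0.05 for the difference, against 11.3% of all genes. The calls were chosen by the TBT change, which is part of this difference, so their count cannot show that the arms differed.

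The 5 genes with the smallest p for the difference, none past the threshold, all passed in VEH liver and none in TBT liver. Hpgd, which inactivates prostaglandins, averaged 76.1 CPM at 10 months and 73.4 CPM at 5 months in TBT liver, with the kept 5-month values between 65.9 and 84.5 CPM. In VEH liver it was at 71.3 to 111 CPM at 10 months and at 33.4 to 50.4 CPM at 5 months, so that the TBT livers of 10 months and the kept ones of 5 months lay above every younger VEH liver (difference of the changes -1.02, adjusted p = 0.137). The left-out 5-month TBT livers differed from the kept ones, with Hpgd at 125 CPM in replicate 2 and at 31.5 CPM in replicate 4, below every kept VEH liver. Ndfip1, an adaptor of Nedd4-family ubiquitin ligases, and Mafg, a small Maf protein, had the same arrangement, with differences of -0.74 and -0.76 (adjusted p = 0.146 for both). In replicate 4 they too were within the range of the younger VEH livers, with Ndfip1 at 140 CPM and Mafg at 36 CPM. Rpl24, a ribosomal protein gene, also did, at -1.02. Lrrc8d, a subunit of volume-regulated anion channels, went the other way, with a difference of 0.71 (adjusted p = 0.137): it was at 32.2 to 36.8 CPM in the older and at 24.7 to 32.0 CPM in the younger TBT livers, and at 28.1 to 32.2 CPM in the older and at 35.9 to 45.6 CPM in the younger VEH livers.

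Clock genes such as Dbp varied widely among the older TBT livers, while Arntl (higher) and Per2 (lower) did not overlap between the ages. The core of the clock acts through the E-box, the sequence CACGTG bound by BMAL1 and CLOCK, and through the D-box, here TTATGTAA or TTACGTAA, bound by DBP, TEF, HLF and NFIL3. RefSeq promoters (250 bases before to 50 after the start, GRCm38.p6, both strands searched) were matched for 17 of the 20 clock genes. An E-box was found in 5 of these 17 genes (29.4%), Per1, Cry1, Tef, Bhlhe41 and Ciart, against 8.09% of all genes with a RefSeq promoter. A D-box was found in 1 of 17, Per3, against 1.23% of all genes with a promoter. The following 3 promoters are shown for motif-bearing genes whose values in single livers are given below, chosen after those values were seen, with the motif letters in capitals:
Tef, chr15:81802423-81802722, plus strand: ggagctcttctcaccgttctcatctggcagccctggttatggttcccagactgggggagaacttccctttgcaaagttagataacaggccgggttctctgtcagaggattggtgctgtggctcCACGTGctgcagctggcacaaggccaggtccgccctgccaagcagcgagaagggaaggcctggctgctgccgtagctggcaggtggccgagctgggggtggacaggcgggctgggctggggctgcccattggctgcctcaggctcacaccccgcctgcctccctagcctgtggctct
Ciart, chr3:95882179-95882478, minus strand: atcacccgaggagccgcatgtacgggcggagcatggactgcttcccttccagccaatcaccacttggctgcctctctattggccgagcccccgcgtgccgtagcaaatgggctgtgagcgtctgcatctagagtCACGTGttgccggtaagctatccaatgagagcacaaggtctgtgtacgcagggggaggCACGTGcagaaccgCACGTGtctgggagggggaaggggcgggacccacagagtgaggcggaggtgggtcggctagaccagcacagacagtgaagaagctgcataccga
Per3, chr4:151044616-151044915, minus strand: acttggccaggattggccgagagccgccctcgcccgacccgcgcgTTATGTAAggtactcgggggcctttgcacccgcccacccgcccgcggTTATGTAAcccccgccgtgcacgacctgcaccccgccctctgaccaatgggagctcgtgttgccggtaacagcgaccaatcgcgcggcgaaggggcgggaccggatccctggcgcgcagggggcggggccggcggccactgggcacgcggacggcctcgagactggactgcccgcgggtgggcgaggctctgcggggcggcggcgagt
Ciart held 3 E-boxes and Per3 had 2 D-boxes in these windows. A match describes the letters in the window and not a bound site.

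**Figure D3:**
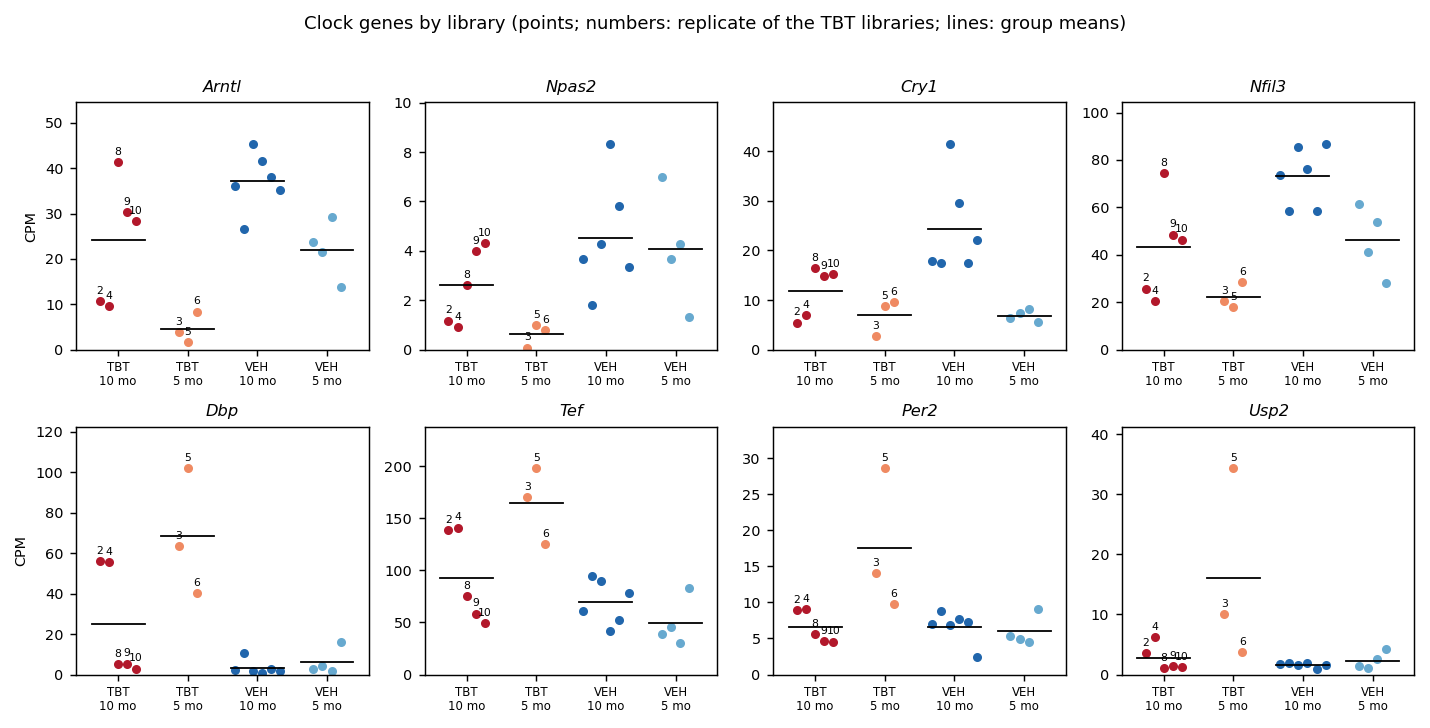
CPM of 8 clock genes by library, with TBT at 10 and 5 months and VEH at 10 and 5 months; points are libraries, numbers give the replicate of the TBT libraries and lines are group means. Replicates 2 and 4 of 10 months lie near the 5-month TBT livers for Arntl and Dbp, apart from replicates 8, 9 and 10.

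None of the 20 clock genes passed the threshold (0.862% of all genes did). At an unadjusted p under 0.05, 3 were higher and 5 lower, against 9.33% and 10.6% of all genes. Their median change was -0.42 (log2), against 0.01 over all genes tested. Arntl came closest, at 10.7, 9.62, 41.4, 30.4 and 28.3 CPM at 10 months and at 3.94, 1.71 and 8.39 CPM at 5 months. All older livers were above all younger ones (log2 fold change 2.27 ± 0.53, adjusted p = 0.0518). Dbp, a D-box activator driven by the clock, was at 56.3, 55.8, 5.18, 5.37 and 2.90 CPM at 10 months and at 63.7, 102 and 40.1 CPM at 5 months. Replicates 2 and 4 of 10 months were thus at the level of the younger livers, and replicates 8, 9 and 10 were far below it (-1.47 ± 0.99, adjusted p = 0.426). Exons of Sphk2 on the opposite strand cover 18% of the exon bases of Dbp, so its counts are uncertain.

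Tef was arranged likewise, with 139, 141, 75, 58.4 and 49.4 CPM at 10 months and 170, 198 and 125 CPM at 5 months, and so was Per3, with 10.6, 9.50, 4.83, 1.74 and 2.26 CPM at 10 months and 18.3, 6.14 and 8.39 CPM at 5 months. Ciart, a repressor of BMAL1 and CLOCK, was at 1.65, 2.37, 0.432, 0.274 and 0.499 CPM at 10 months and at 4.88, 15.4 and 0.706 CPM at 5 months. Per2, a clock repressor, was lower in all older livers, at 8.91, 9.12, 5.65, 4.60 and 4.56 CPM against 14.1, 28.6 and 9.80 CPM in the younger ones (-1.41 ± 0.38, adjusted p = 0.0666). Usp2, a ubiquitin protease under clock control, had 3.61, 6.18, 1.10, 1.43 and 1.23 CPM at 10 months and 10.1, 34.3 and 3.76 CPM at 5 months (-2.56 ± 0.63, adjusted p = 0.0603).

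In VEH liver Dbp was at 0.892 to 10.8 CPM at 10 months and at 1.53 to 16.2 CPM at 5 months, below every 5-month TBT liver at both ages. Neither edgeR test of the arms passed for Dbp. The difference between the changes with age had an adjusted p of 0.923, and TBT against VEH liver at 5 months had one of 0.159. Cry1 rose with age in VEH liver (1.84, adjusted p = 0.00423) and Nr1d1 fell (-1.28, adjusted p = 0.0209), whereas neither passed in TBT liver. Their differences between the arms did not pass either (adjusted p = 0.495 for Cry1 and 0.511 for Nr1d1). The part of the hour of collection in these values was not tested, since no hour is given in the labels. Among 20 clock-controlled output genes 1 was called, against 0.862% of all genes. It was Leo1, a subunit of the PAF1 transcription complex, which rose by 0.74 (adjusted p = 0.0395). Por, the electron donor of the liver P450s, was lower in all older livers, at 215, 206, 124, 160 and 110 CPM against 301, 587 and 318 CPM in the younger ones, without passing (-1.32 ± 0.37, adjusted p = 0.0804).

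**Figure D4:**
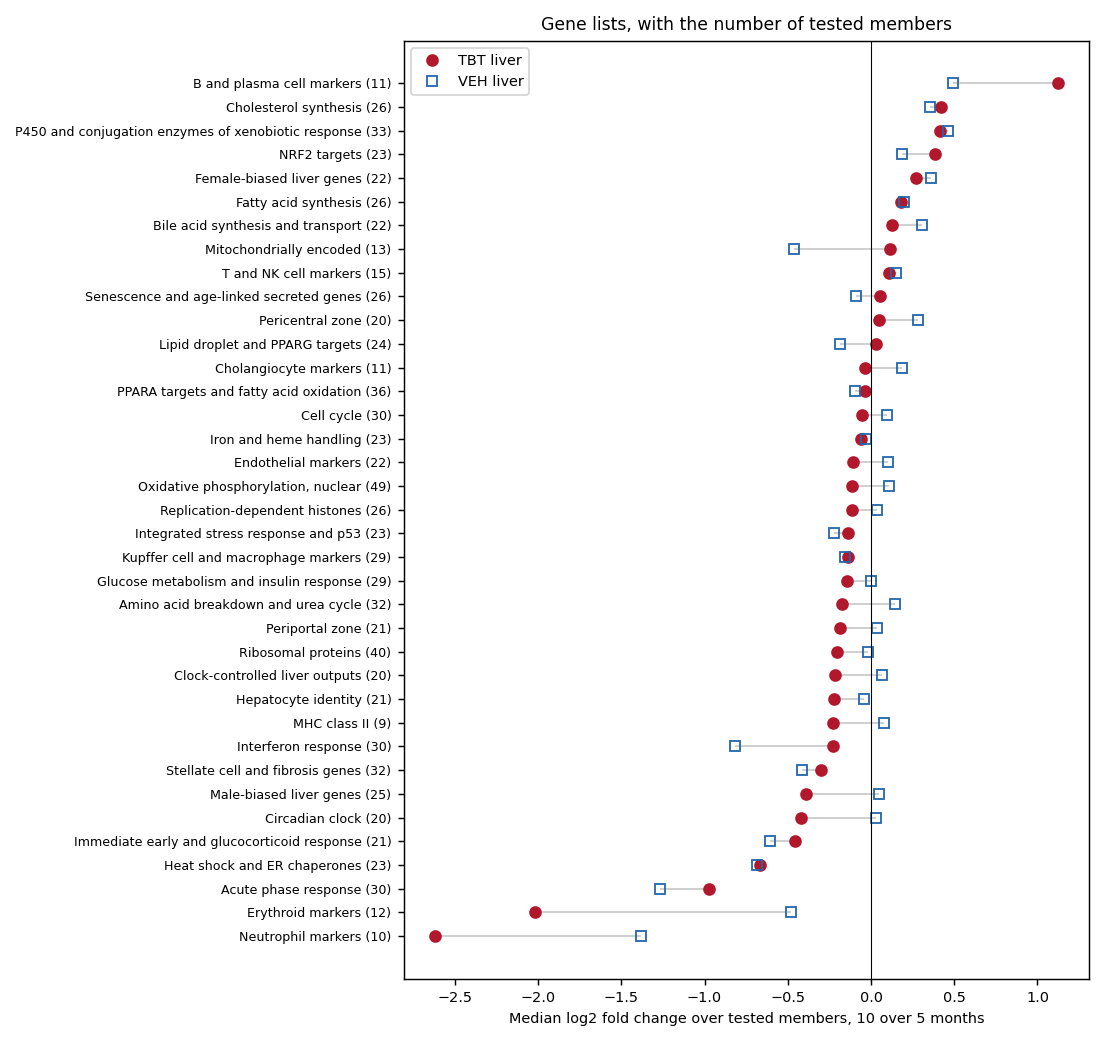
Median log2 fold change at 10 over 5 months over the tested members of 37 gene lists, with the number of tested members in brackets, in TBT liver (filled circles) and VEH liver (open squares). Acute phase, heat shock and chaperone, neutrophil and erythroid lists had the lowest medians in TBT liver, and most medians lay within 0.5 of 0.

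Acute phase genes, which liver makes in inflammation, changed by a median of -0.98 (log2) over 30 members in TBT liver and by -1.27 in VEH liver. In TBT liver 2 of the 30 were called, both lower (A2m and Saa4), against 0.473% of all genes. There 15 were lower at an unadjusted p under 0.05, against 10.6% of all genes. In VEH liver 13 of the 30 were called lower, against 8.84% of all genes. Replicate 3 of 5 months had the highest summed level, although Saa4 was highest in replicate 5. Lcn2, the iron-siderophore binder lipocalin 2, was at 36.7, 5.27, 35.2, 1.68 and 6.13 CPM at 10 months and at 1070, 4.14 and 2.90 CPM at 5 months (-4.44 ± 1.74, adjusted p = 0.179). The summed level of the list was 36300 to 60300 CPM at 10 months and 144000, 51300 and 39900 CPM at 5 months. VEH replicate 3 of 5 months likewise had the highest sum of its group, at 184000 CPM against a median of 88800 CPM.

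Neutrophil markers moved with TBT replicate 3 of 5 months. Their summed CPM was 5.49 to 10.0 in the older livers and 98.5, 5.86 and 4.08 in the younger ones, and Ly6g was at 0 in every older liver. In bulk tissue fewer cells of a type and less RNA per cell cannot be told apart. None of the 10 tested neutrophil markers passed, and 6 were lower at an unadjusted p under 0.05, against 10.6% of all genes. The median change was -2.62 (log2) in TBT liver and -1.38 in VEH liver. The part of these cells in the acute phase values was not tested.

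Heat shock proteins and chaperones of the endoplasmic reticulum (ER) were mostly lower at 10 months, with a median of -0.67 over 23 genes in TBT liver and of -0.68 in VEH liver. None of these 23 passed in TBT liver, and DESeq2 called 8 lower, against 451 of all 13115 genes tested. At an unadjusted p under 0.05, 14 were lower and 0 higher, against 10.6% and 9.33% of all genes. In VEH liver 10 were called lower, against 8.84% of all genes. Serpinh1, called lower in TBT liver, and the HSP40-family gene Dnajc7, called higher, are not on this list. Hsp90ab1, a cytosolic HSP90, was at 528, 545, 665, 674 and 650 CPM at 10 months and at 674, 1120 and 1080 CPM at 5 months (-0.66 ± 0.16, adjusted p = 0.0511). Creld2, an ER stress gene, was at 20.4, 23.3, 20.3, 54.4 and 30.2 CPM at 10 months and at 18.7, 249 and 172 CPM at 5 months (-2.31 ± 0.73, adjusted p = 0.108). Replicates 5 and 6 were the high ones here, and replicate 3 was at the level of the older livers. The left-out livers were also low, with Creld2 at 16.0 and 20.9 CPM. The core of the heat shock element, GAANNTTC, was found in the promoters of 8 of 18 matched genes of the list (44.4%), among them Hspa1a, Hspa1b and Hsph1, against 9.04% of all genes with a RefSeq promoter.

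Interferon-response genes fell less in TBT than in VEH liver by their medians, -0.23 and -0.81 over 30 genes. None was called in TBT liver, with 8 lower at an unadjusted p under 0.05, against 10.6% of all genes. In VEH liver 17 were called lower, against 8.84% of all genes. For 9 of the 30 the difference between the arms was positive at an unadjusted p under 0.05 (5.25% of all genes), and none of these differences passed the adjusted threshold. The summed level of the list was 402 to 474 CPM in the older and 504 to 562 CPM in the younger TBT livers, which did not overlap. It was 354 to 443 CPM in the older and 531 to 713 CPM in the younger VEH livers. Zbp1, a sensor of nucleic acids, was lower in all older TBT livers, at 3.55, 3.70, 4.08, 2.99 and 2.66 CPM against 9.25, 5.14 and 5.02 CPM (-0.96 ± 0.25, adjusted p = 0.0646).

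Matrix genes made by stellate cells had 2 of 32 members called, both lower, against 0.473% of all genes tested. Sparc, a matrix glycoprotein, was at 43.8, 42.0, 36.9, 33.2 and 42.2 CPM at 10 months and at 65.6, 64.9 and 55.5 CPM at 5 months (-0.67 ± 0.13, adjusted p = 0.0252). Col4a1, a basement membrane collagen, was at 61.3, 55.6, 44.8, 45.1 and 68.8 CPM at 10 months and at 79.1, 90.4 and 71.7 CPM at 5 months (-0.56 ± 0.13, adjusted p = 0.0471). Neither gene's ages overlapped, and both also fell in VEH liver, by 0.79 and 1.09. With Serpinh1 and the rise of Col5a3, genes of collagen and its handling went in both directions. The list's median was -0.30 in TBT liver.

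Red cell transcripts were lower in the older TBT livers. The summed level of the erythroid markers was 315, 405, 471, 366 and 537 CPM at 10 months and 781, 1540 and 1360 CPM at 5 months, with no overlap. Hbb-bs, an adult beta globin, was at 17.7, 87.3, 112, 54.4 and 196 CPM at 10 months and at 362, 842 and 728 CPM at 5 months (-2.80 ± 0.87, adjusted p = 0.102). None of the 12 tested markers was called, and DESeq2 called 4 lower, against 451 of all 13115 genes tested. Of the 12, 8 were lower at an unadjusted p under 0.05, against 10.6% of all genes. The list's median was -2.02 in TBT liver and -0.48 in VEH liver. The globin genes are near-identical pairs, so their separate counts are uncertain, and the part of residual blood in other results was not tested.

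B and plasma cell markers had the highest median of all lists, 1.12 over 11 tested genes, with none called and with a summed level of 256 to 344 CPM at 10 months and 208 to 459 CPM at 5 months. Cd22, an inhibitory receptor of B cells, was at 1.76, 2.82, 2.28, 1.98 and 2.10 CPM at 10 months and at 1.11, 0.429 and 1.10 CPM at 5 months (1.22 ± 0.37, adjusted p = 0.0876). Ribosomal protein genes had a median of -0.21 over 40 genes, with Rplp2 called lower, against 0.473% of all genes. Of the 40, 16 were lower at an unadjusted p under 0.05, against 10.6% of all genes. Rpl36, Fau and Rpl41 are not on that list. Mitochondrially encoded genes had a median of 0.11 in TBT liver and of -0.46 in VEH liver. None was called in TBT liver, and 3 of 13 were called lower in VEH liver, against 8.84% of all genes. The mitochondrial share of counts was 1.34% to 1.42% in the older and 0.913% to 1.35% in the younger TBT livers. Kupffer cell, endothelial, cholangiocyte, and T and NK cell lists had no called member in TBT liver (0.862% of all genes were called), with medians between -0.14 and 0.11.

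Of 26 tested genes of fatty acid synthesis 1 was called, lower, and of 22 tested genes of bile acid synthesis and transport none was. Over all genes 0.862% were called, a share at which lists of this size would hold few calls. Pparg, the fat-cell receptor that TBT activates, was at 12.0, 15.5, 9.62, 14.5 and 22.9 CPM at 10 months and at 4.46, 1.43 and 8.16 CPM at 5 months. All older livers were above all younger ones (1.58 ± 0.44), which missed the threshold in TBT liver (adjusted p = 0.0723) and passed in VEH liver (1.69, adjusted p = 0.00535). The difference between the arms was -0.11 (adjusted p = 0.964), and the left-out 5-month TBT livers were at 12.2 and 16.1 CPM, in the range of the older ones. Of 24 tested genes of lipid droplets and PPARG targets none was called, against 0.862% of all genes. Cidea, a lipid droplet protein, was at 6.83 CPM in replicate 10 of 10 months and at 0.0785 to 1.60 CPM in the other older livers.

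Fasn, the fatty acid synthase, was at 1030, 1340, 698, 604 and 1870 CPM at 10 months and at 450, 561 and 880 CPM at 5 months (0.80 ± 0.78, adjusted p = 0.599), and Scd1, the stearoyl-CoA desaturase, was at 8550 to 33200 CPM at 10 months and at 12300 to 20800 CPM at 5 months. Both spreads overlapped widely. Cyp7a1, the rate-limiting enzyme of bile acid synthesis, was at 228, 159, 74.5, 74.2 and 65.9 CPM at 10 months and at 434, 19.1 and 77.3 CPM at 5 months (-0.59 ± 0.91, adjusted p = 0.757). Cidec, Glul, Mki67, Cdkn1a, Hamp and Afp had log2 fold changes between -0.63 and 0.44 in TBT liver, all with overlapping ages and adjusted p of at least 0.614. Cdkn1a, the cell cycle inhibitor p21, fell by 2.56 in VEH liver (adjusted p = 0.00480), and its difference between the arms did not pass (adjusted p = 0.455). The lists of cholesterol synthesis, xenobiotic P450 and conjugation enzymes, PPARA targets, glucose metabolism, nuclear oxidative phosphorylation and cell cycle had no called member in TBT liver. Over all genes 0.862% were called there. Ccnd2, a D-type cyclin that is not on the cell cycle list, was called lower. It was at 5.24 to 8.51 CPM at 10 months and at 10.6 to 11.6 CPM at 5 months.

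**Figure D5:**
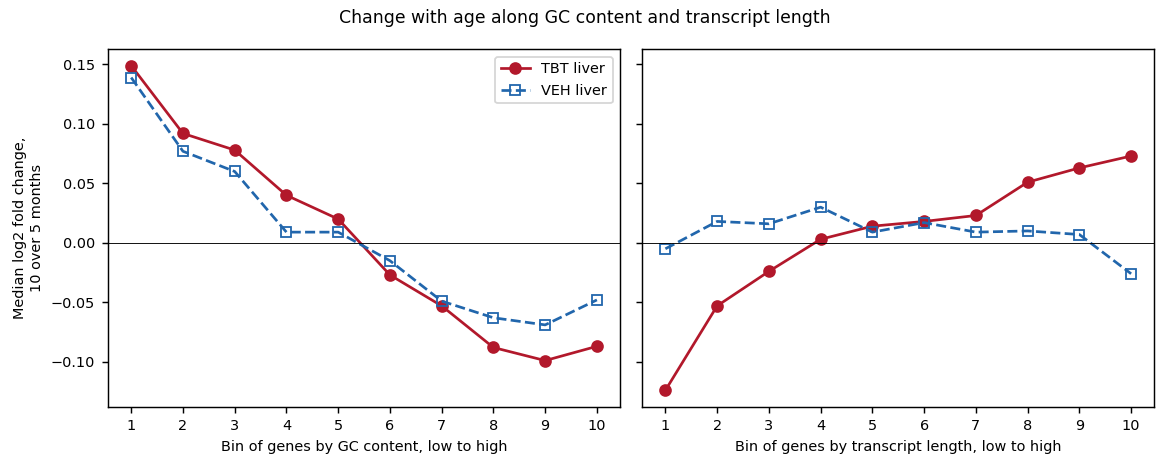
Median log2 fold change at 10 over 5 months for 10 equal bins of the tested genes by GC content and by length of the transcript, in TBT liver (filled circles) and VEH liver (open squares). Medians fell along GC content in both arms, starting from 0.149 (TBT) and 0.139 (VEH) in the lowest bin, and in TBT liver they were higher for longer transcripts.

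The genes that rose and those that fell also differed in sequence composition. Transcripts of the TBT rises had a median GC content of 46.4% and a median length of 3654 bases, those of the falls had 55.1% and 1940 bases, and all tested genes had 50% and 3134 bases. In VEH liver the medians were 47.4% and 3086 bases for the rises and 52.1% and 3063 bases for the falls. With the genes split into 10 equal bins by length, the bin of the shortest transcripts changed by a median of -0.124 (log2) in TBT liver and by -0.005 in VEH liver. With these trends removed from the counts, 91 genes passed, 23 higher and 68 lower, against 51 and 62 without the removal, and 61 of them were among the 113.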

How the data were processed

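Per the labels' protocols, total RNA of frozen liver went into a strand-marking library kit. The authors deposited raw read counts per gene (whole numbers) for 29 libraries. The submitters' processing notes name the build mm10 and the tools HISAT2, featureCounts, edgeR, FastQC and Trim Galore; versions, the annotation and the strand setting were not given in the sources used here.

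The 18 liver libraries kept formed 1 edgeR 4.0.16 fit of 4 groups (R 4.3.3; filterByExpr with minimum count 10 and total 15, TMM, robust quasi-likelihood, two-sided, Benjamini-Hochberg over 13115 genes at 0.05). Kept VEH livers of 5 months held 18603160 to 33704303 counts and VEH livers of 10 months 25714194 to 30362835; intervals cover counting error only. Levels are CPM scaled by TMM over all libraries, and fold changes are edgeR's with SE. Since separate animals are not stated, p-values reflect only the spread among libraries, which may be technical. The fit was tested on simulated data, with 200 of 13001 genes changed at 10 months in TBT liver. It found 18.2% of 1.5-fold, 77.6% of 2-fold and 92.2% of 4-fold changes, with 7 false calls. Simulated libraries of a group differed only in random spread and library size.

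The TBT liver called replicate 9 carries that number in its column and another in its title. Library choice and the 41 gene lists were made with earlier results of these data known. Named genes are the 10 largest changes each way among calls averaging 2 CPM or more at either age (no predicted, tumour-list or intestinal-list genes), all 20 clock genes (1 is not reported here by name), 11 preset genes and the 5 smallest p for the difference between arms; other genes were chosen after their values were seen. Coordinates and transcripts are GENCODE M21 (GRCm38), promoters RefSeq (GRCm38.p6). Alternatives were both limits dropped together or singly, TBT libraries alone, other filters, median-of-ratios scaling, DESeq2 1.42.0, voom of limma 3.58.1, thinning, a replicate block and each library left out; removal of GC and length trends was chosen after seeing the data.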

Additional observations from a re-analysis of the deposited data

Results flagged for a closer look

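A single library stood apart from its group, by Dixon's gap test at 95%, in 3 of 96 groups of values examined; chance flags about 1 in 20. In TBT liver of 10 months, replicate 10 had Cidea at 6.83 CPM against 0.0785 to 1.60 CPM in the others. Replicate 8 of 10 months stood apart in 2 measures: Rora at 148 CPM against 112 to 119 CPM, and the summed level of the ribosomal protein genes at 9920 CPM against 7270 to 7710 CPM. Rora encodes a nuclear receptor that switches on Arntl, which was also highest in this library, at 41.4 CPM. In replicates 2, 4, 9 and 10 Rora was at 119, 117, 115 and 112 CPM and Arntl at 10.7, 9.62, 30.4 and 28.3 CPM. A link between the levels of these genes was not tested. Rora was not called at 10 against 5 months in TBT liver (adjusted p = 0.351).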

How the results depend on the processing

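The count of 113 TBT genes moved by over 1.5 times under many settings: 232 with no library left out for Ly6d or Sis, 293 with the Sis limit alone, 0 in the TBT libraries alone (1957 at an unadjusted p under 0.05), 33 without a filter, 794 with DESeq2, 24 with limma-voom and 72 with all libraries thinned to 7513448 counts, 61 of these among the 113. Leaving out 1 library gave 6 to 1030 calls; VEH libraries share the estimate of spread and moved it too (36, 48 and 32 without VEH replicates 1, 4 and 6 of 10 months, 237 without VEH replicate 5 of 5 months). It was 169 with the Ly6d limit alone, 125 with median-of-ratios scaling, 159 with a stricter filter and 91 with GC and length trends removed. The cause of these shifts was not tested, and several settings also changed the number of libraries or genes. VEH calls were 1706 to 2974 over the omissions. Calls of a difference between the arms were 117 with DESeq2 and 0 to 7 over the omissions. The log2 fold change of A2m ranged from -5.787 to 0.677 over the omissions, and reversed without TBT replicate 3 of 5 months. With the replicate number as a block the calls were 0 for TBT (1186 at an unadjusted p under 0.05) and 1069 for VEH; TBT libraries of the 2 ages share no number, and same-numbered VEH libraries correlated at -0.077, 0.069 and 0.033. TBT and VEH livers of 5 months with the same number correlated at 0.519 (number 3) and 0.221 (number 5), and those of 10 months at 0.04 and -0.113; the labels do not say what a number shares. The 3 to 5 TBT libraries an age, with 7513448 to 13661352 counts at 5 months, limit what can be detected.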

Other observations

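Outside the groups described so far, the metallothionein genes Mt1 and Mt2, whose products bind zinc and copper, had large fold changes without passing the threshold, and their ages overlapped. Mt1 was at 14.2, 5.42, 15, 6.71 and 18.7 CPM in TBT livers of 10 months (replicates 2, 4, 8, 9 and 10) and at 458, 235 and 4.08 CPM in the kept ones of 5 months (replicates 3, 5 and 6), a log2 fold change of -4.30 ± 1.16 (edgeR adjusted p = 0.0745). The left-out 5-month TBT livers, at 96.6 and 453 CPM, were above all older ones, and replicate 6 was below them. Mt2 was at 0.153 to 0.899 CPM at 10 months and at 36.2, 10.6 and 0.392 CPM at 5 months (-4.79 ± 1.51, adjusted p = 0.108). In VEH liver Mt1 fell by 5.64 (adjusted p = 0.00338). The list of immediate early and glucocorticoid response genes that holds them had a summed level of 2890 to 6390 CPM at 10 months and 7630 to 7970 CPM at 5 months, with no called member of 21 tested and a median of -0.45 (log2).

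Xenobiotic and antioxidant genes leaned upwards with age in both arms, again without calls in TBT liver. Tested P450 and conjugation enzymes, 33 in all, had a median of 0.41 in TBT liver and 0.46 in VEH liver. In VEH liver 8 were called higher, against 8.95% of all genes. Gclc, the rate-limiting subunit of glutathione synthesis, was at 257, 278, 476, 458 and 508 CPM at 10 months and at 186, 124 and 328 CPM at 5 months in TBT liver (0.88 ± 0.26, adjusted p = 0.0874), and rose by 1.15 in VEH liver (adjusted p = 0.00301). Cyp1a2, a pericentral P450, went the other way in TBT liver, at 314, 290, 172, 244 and 187 CPM at 10 months and at 528, 377 and 316 CPM at 5 months (-0.78 ± 0.22, adjusted p = 0.0713), with no overlap. These genes were chosen after their values were seen.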
